A study of Rattus norvegicus with 8 samples.

Results

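Voltage-gated sodium channel subunits of the brain were described in the hippocampus of rats kindled with pentylenetetrazole (PTZ) and treated with Q808. The 7 genes are the alpha subunits Scn1a, Scn2a, Scn3a and Scn8a and the beta subunits Scn2b, Scn3b and Scn4b. They were found by NCBI GeneID among the 22601 genes measured in each library, and all 7 had a mean of at least 0.1 FPKM, the limit that 15593 genes passed. FPKM is the number of fragments per kilobase of transcript, scaled to the sequencing depth, so levels of genes can be set side by side within a library. Between libraries FPKM also depend on the make-up of the RNA, and other scalings were tried.

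RNA was sequenced from the hippocampus of 8 Wistar rats, with 1 library per rat, 3 in the Con. group, 3 in the PTZ group and 2 in the Q808 group. The rats weighed 180 to 220 g at purchase, before the kindling and treatment described below. PTZ is a convulsant drug that blocks the GABA-A receptor, while Q808 is a compound under study against seizures. No genetic change is named for any group. Rats of the PTZ and Q808 groups shared kindling over 28 days, with 14 injections of 35 mg/kg PTZ, spaced by 48 h, and a dose of 60 mg/kg to close it. Then the Q808 group received 30 mg/kg Q808 by gavage daily for 28 days and the PTZ group its vehicle, while the Con. group had saline in place of PTZ and then the vehicle. Rats of both kindled groups were given PTZ once more the day after the last Q808 dose and were killed after that seizure test, so the last injection, the kindling and the seizures cannot be told apart in their RNA. The hippocampus of both sides was dissected after removal of the meninges.

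Voltage-gated sodium channels open when the membrane depolarizes and carry the rising phase of the action potential. Each channel has 1 alpha subunit, which forms the pore, the voltage sensor and the inactivation gate, and is joined by beta subunits, single-span membrane proteins with an immunoglobulin fold that tune gating and take part in cell adhesion. Several antiseizure drugs block these channels, and inherited changes in the alpha genes of the brain cause epilepsies.

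In these data no sodium channel subunit passed the test in the main fits of the 3 comparisons. Of all tested genes 2.53% passed in PTZ against Con., 1.92% in Q808 against PTZ and 3.46% in Q808 against Con. Scn2b was the only one of the 7 whose PTZ libraries all lay below the Con. libraries, against 5.03% of all tested genes. Its difference was less than 1.5-fold. Scn4b and Scn3b differed far more between libraries of the same group than between groups, and both followed a division of the libraries that runs across the 3 groups. Relative depth, read from the steps in the low FPKM values, lay between 0.854 and 1.19 times that of Con.-1.

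That division came from marker genes of striatal projection neurons. The mean log2(FPKM + 0.1) of 8 such markers reached 7.63 for Con.-3, 6.31 for PTZ-3 and 6.35 for Q808-1, while the remaining 5 had 2.01 to 2.95. In the 3 high libraries the mean over 6 dentate granule cell markers was -0.37 to -0.16, against 1.05 to 1.38 in the other 5. That over 7 hippocampal pyramidal cell markers was 1.40 to 1.76, against 2.53 to 2.73. Without overlap, 3 of the 6 dentate and 5 of the 7 pyramidal markers were lower in the 3 libraries, against 9.59% of all tested genes. Spink8, a listed pyramidal marker, was higher there, at 0.254 to 0.585 FPKM against 0 to 0.140 FPKM. Prox1, a defining transcription factor of dentate granule cells, measured 2.84 to 4.04 FPKM in the 3 libraries and 12.2 to 16.6 FPKM in the other 5, while the listed markers Tdo2 and Lct stayed at or near 0 in all 8. The mean over 8 oligodendrocyte markers was 8.49 to 9.31 in the 3 libraries, against 7.14 to 7.84, and that over 7 general neuron markers was 6.20 to 6.41, against 6.84 to 7.54. Each group holds 1 of these 3 libraries, which makes up 1 of only 2 in the Q808 group, and for each of the 7 genes the change of PTZ against Con. is also given without them. The mean over 6 choroid plexus markers differed by group among the other 5. It was 4.19 and 4.49 in Con.-1 and Con.-2, 2.11 and 1.55 in PTZ-1 and PTZ-2, and 5.91 in Q808-2. In Con.-3, PTZ-3 and Q808-1 it was 0.72, 2.80 and 1.59. Changes among the 5 libraries are thus not free of differences in tissue markers, whose part was not tested.

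Several of the genes are neighbours on their chromosomes. In the RefSeq annotation of GRCr8, Scn3a and Scn2a are neighbouring coding genes on chromosome 3, on opposite strands with 44758 bases between their start sites, and Scn1a stands on the same chromosome next to Scn9a, with Scn7a beyond it. Scn2b and Scn4b are neighbours on chromosome 8, on the same strand with 21490 bases between their start sites, and Scn3b is on chromosome 8 as well but not next to them. Scn8a stands apart from the others, on chromosome 7. The start regions of Scn2b and Scn4b are shown because the levels of these adjacent genes varied over the libraries in different ways. Each covers 250 bases before and 50 bases after the start on the plus strand of GRCr8, with the CG dinucleotides in capitals, for Scn2b at chr8:54322133-54322432 and for Scn4b at chr8:54343623-54343922.
Scn2b: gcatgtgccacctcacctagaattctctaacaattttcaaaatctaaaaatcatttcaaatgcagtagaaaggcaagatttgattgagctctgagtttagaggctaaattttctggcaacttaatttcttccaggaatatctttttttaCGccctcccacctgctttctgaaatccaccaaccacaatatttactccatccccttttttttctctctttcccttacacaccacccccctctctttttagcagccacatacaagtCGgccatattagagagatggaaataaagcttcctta
Scn4b: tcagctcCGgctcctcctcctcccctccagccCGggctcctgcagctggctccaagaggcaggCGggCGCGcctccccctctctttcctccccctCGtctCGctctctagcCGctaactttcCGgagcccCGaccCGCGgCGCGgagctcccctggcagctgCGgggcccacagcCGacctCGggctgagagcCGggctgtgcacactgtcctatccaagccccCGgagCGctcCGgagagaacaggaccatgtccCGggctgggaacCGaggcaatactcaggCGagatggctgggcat

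The start region of Scn4b holds 24 CG dinucleotides and 70.0% G and C, more CG dinucleotides than 82.0% of the 33469 start regions in the RefSeq table, whose medians are 7 CG dinucleotides and 51.7% G and C. That of Scn2b holds 2 CG dinucleotides and 39.0% G and C, more than 13.6% of the regions. Of the 7 genes, 5 had an entry in the table, all but Scn1a and Scn3b. Scn8a stands at the other end of the range, with 60 CG dinucleotides, 84.7% G and C and 7 copies of the GC box GGGCGG, a motif present on either strand in 33.1% of all regions. The E-box CANNTG occurs 2 times in the Scn4b region, 3 times in that of Scn2b and 3 times in that of Scn2a, and in 72.1% of all regions. The TATA box TATAAA, the CCAAT box and the cAMP response element TGACGTCA, present in 14.2%, 37.5% and 1.83% of all regions, were not found in any of the 5. These matches describe letters in a window and say nothing of binding.

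Scn2a (GeneID 24766), the pore subunit of many excitatory axons, was the most abundant alpha subunit in all 8 libraries. It measured 31.5, 41.8 and 43.1 FPKM in Con.-1 to Con.-3, 32.1, 33.0 and 28.9 FPKM in PTZ-1 to PTZ-3, and 17.7 and 37.3 FPKM in Q808-1 and Q808-2. The Con. and PTZ libraries overlapped, since Con.-1 lay below 2 of the PTZ libraries, and Q808-1 was the lowest of all. The means were 38.8 ± 6.38 and 31.3 ± 2.13 FPKM (SD, n = 3 each) and 27.5 ± 13.9 FPKM (SD, n = 2) for Con., PTZ and Q808. PTZ against Con. gave -0.30 on the log2 scale, with a standard error of 0.16 (limma with Benjamini-Hochberg adjustment over all genes, adjusted p = 0.999). Without the 3 libraries it was -0.16.

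Scn8a (GeneID 29710), the main pore subunit of mature axon initial segments and nodes of Ranvier, came next in all 8 libraries. It measured 17.6, 29.4 and 23.0 FPKM in the Con. libraries, 18.4, 23.3 and 8.25 FPKM in the PTZ libraries, and 11.5 and 23.9 FPKM in the Q808 libraries. The 3 groups overlapped, and the lowest levels were those of PTZ-3 and Q808-1, both of which have high striatal markers. The means were 23.3 ± 5.89, 16.7 ± 7.68 (SD, n = 3 each) and 17.7 ± 8.81 FPKM (SD, n = 2), and PTZ against Con. differed by -0.58 on the log2 scale, with a standard error of 0.39 (limma, adjusted p = 0.999). Without the 3 libraries this change was -0.13, and between PTZ-3 and Con.-3 alone it was -1.47.

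Scn1a (GeneID 81574), a pore subunit best known from inhibitory interneurons, measured 4.67, 7.17 and 8.92 FPKM in the Con. libraries, 5.63, 7.06 and 5.40 FPKM in the PTZ libraries, and 7.14 and 6.79 FPKM in the Q808 libraries. The Con. group spanned the values of both other groups. Its log2 fold changes were -0.16 for PTZ against Con., 0.22 for Q808 against PTZ and 0.06 for Q808 against Con. (limma, adjusted p from 0.952 to 0.999). The first of these had a 95% interval of -0.79 to 0.47 and was 0.12 without the 3 libraries.

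Scn3a (GeneID 497770), a pore subunit most abundant in the developing brain, had the lowest level of the 4 in 7 of the 8 libraries. It measured 3.53, 4.77 and 9.64 FPKM in the Con. libraries, 3.52, 3.90 and 4.98 FPKM in the PTZ libraries, and 4.17 and 4.31 FPKM in the Q808 libraries. Con.-3 stood apart, with 9.64 FPKM, and was the only library in which Scn3a lay above Scn1a. The mean of 5.98 ± 3.23 FPKM in the Con. group (SD, n = 3) rests on it, and the log2 change of PTZ against Con., -0.41 with a standard error of 0.37 (limma, adjusted p = 0.999), was -0.0034 without Con.-3 and -0.14 without the 3 libraries.

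**Figure D1:**
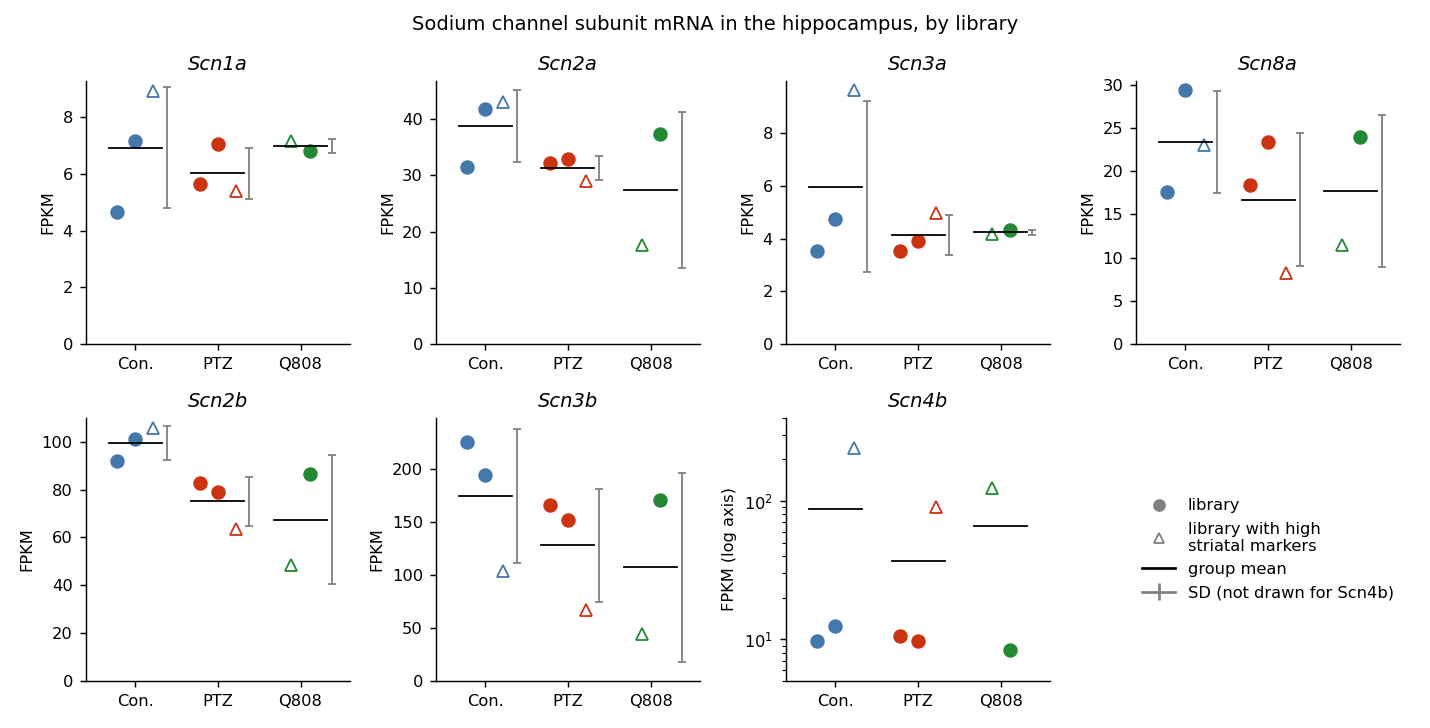
FPKM of each subunit (y axis, logarithmic for Scn4b) in the libraries of the Con., PTZ and Q808 groups (x axis), with a point per library, open triangles for Con.-3, PTZ-3 and Q808-1, a line at the group mean and the SD beside it. Scn2b is lower in every PTZ library than in every Con. library, as are 5.03% of all tested genes. The triangles of Scn4b lie between 91.0 and 240 FPKM, above the points at 8.37 to 12.5 FPKM.

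Together, the 4 alpha subunits summed to 57.2, 83.1 and 84.7 FPKM in the Con. libraries, to 59.7, 67.3 and 47.6 FPKM in the PTZ libraries, and to 40.5 and 72.3 FPKM in the Q808 libraries. Scn2a made up 43.6% to 60.8% of the sum, Scn8a 17.3% to 35.3%, Scn1a 8.16% to 17.7% and Scn3a the rest. The share of Scn3a was between 5.73% and 6.16% in 5 libraries and between 10.3% and 11.4% in Con.-3, PTZ-3 and Q808-1. The same 3 libraries had lower shares of Scn8a, 17.3% to 28.4% against 30.7% to 35.3%, and shares of Scn1a that began where the others ended, at 10.5%, while those of Scn2a overlapped. Between the groups, the libraries overlapped for every alpha share. Two-sided exact permutation tests of the mean shares gave p = 0.2 or more, in a design that cannot go below 0.1.

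**Figure D2:**
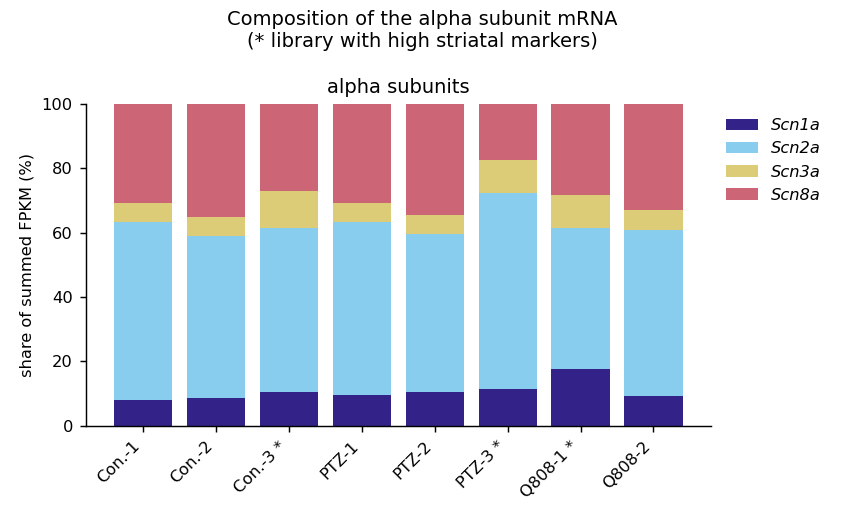
Share of each gene in the summed FPKM of the 4 alpha subunits, in percent (y axis), in each library (x axis), with an asterisk for Con.-3, PTZ-3 and Q808-1. Scn2a is the largest share in all 8 libraries, and Scn3a takes 10.3% to 11.4% in the libraries with an asterisk and 5.73% to 6.16% in the others.

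Scn2b (GeneID 25349) is a beta subunit bound to the alpha subunit by a disulfide bridge and raises the number of channels at the surface. It measured 91.8, 101 and 106 FPKM in the Con. libraries, 82.7, 79.1 and 63.5 FPKM in the PTZ libraries, and 48.5 and 86.5 FPKM in the Q808 libraries. All 3 PTZ libraries and both Q808 libraries were lower than the lowest Con. library, and the PTZ and Q808 libraries overlapped. Of all tested genes, 5.03% were wholly lower in PTZ and 6.71% wholly lower in Q808 than in Con. libraries. The means were 99.6 ± 7.16 and 75.1 ± 10.2 FPKM (SD, n = 3 each) and 67.5 ± 26.9 FPKM (SD, n = 2). The PTZ level was 0.750 times the Con. level, a log2 difference of -0.41 with a standard error of 0.14, short of the 1.5-fold limit. Its unadjusted limma p was under 0.05, but the adjusted p over all genes was 0.999, and between 0.221 and 1.00 over the alternatives tried, so the difference did not pass correction. A two-sided exact permutation test over the 6 libraries gave p = 0.1, the smallest it can give.

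The difference in Scn2b between the PTZ and Con. groups had the same sign within both sets of libraries. Without Con.-3 and PTZ-3 it was -0.25 on the log2 scale (limma, adjusted p = 0.221), and between PTZ-3 and Con.-3 it was -0.74, with no test. Leaving out each library in turn gave -0.49 to -0.30, and the unadjusted p was under 0.05 in 14 of the 17 alternatives, which reuse the same libraries. The unadjusted limma p was 0.090 with median ratio scaling, 0.096 with all 3 groups in a fit and 0.067 without Con.-2. The mean over the 7 general neuron markers overlapped between the groups, at 6.41 to 7.04 in the Con. libraries and 6.38 to 7.54 in the PTZ libraries. Scn2b relative to that mean was -0.37 to 0.32 in the Con. libraries and -1.23 to -0.39 in the PTZ libraries. This margin is too narrow to read as a separation of the groups. The mean also includes Eno2, which measured 26.2 FPKM in PTZ-2 and 2.21 to 5.81 FPKM in the other libraries. In whole tissue, fewer cells of a type and less mRNA per cell cannot be told apart.

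Scn3b (GeneID 245956), a beta subunit held without a disulfide bridge, was the most abundant of the 7 genes in the 5 libraries with low striatal markers. It measured 225, 194 and 103 FPKM in the Con. libraries, 166, 152 and 67.0 FPKM in the PTZ libraries, and 44.2 and 170 FPKM in the Q808 libraries. The 3 low values are those of Con.-3, PTZ-3 and Q808-1, and no other library lay below 152 FPKM. The group means of 174 ± 63.3, 128 ± 53.4 (SD, n = 3 each) and 107 ± 89.1 FPKM (SD, n = 2) stood beside log2 changes of -0.47 for PTZ against Con. (SE 0.42; limma, adjusted p = 0.999) and -0.93 for Q808 against Con. (SE 0.64; limma, adjusted p = 0.901). The latter was -0.30 without the 3 libraries and 0.043 without Q808-1.

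Within the 5 libraries, Scn3b was also lower in PTZ than in Con. libraries, with a log2 change of -0.40 (limma, adjusted p = 0.164), and between PTZ-3 and Con.-3 the difference was -0.62. With the replicate number as a block, which also sets Con.-3 and PTZ-3 apart, the change of -0.47 had an unadjusted limma p under 0.05 (adjusted p = 0.710). None of these passed the 1.5-fold limit except the value of the single pair, which has no test. With the mean of the striatal markers as a covariate, in a fit of all 3 groups, the change was -0.61 (limma, adjusted p = 0.652). That meets both limits of a call, as did 656 of all 15593 tested genes in this setting, against 395 in the main fit. The call of Scn3b thus depends on how the division of the libraries is handled.

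Scn4b (GeneID 315611), a disulfide-bound beta subunit known for its high level in the striatum and for its part in resurgent sodium current, had the widest range of the 7. It measured 9.67, 12.5 and 240 FPKM in the Con. libraries, 10.6, 9.68 and 91.0 FPKM in the PTZ libraries, and 123 and 8.37 FPKM in the Q808 libraries. The lowest of Con.-3, PTZ-3 and Q808-1 was 7.30 times the highest of the other 5, and the 3 groups overlapped almost fully. The log2 fold changes were -0.54 for PTZ against Con. (95% interval -3.79 to 2.70), 0.61 for Q808 against PTZ (-2.73 to 3.94) and 0.06 for Q808 against Con. (-4.35 to 4.47), intervals wide enough to hold changes of several fold in either direction. Among the 5 libraries alone the level stayed within 8.37 to 12.5 FPKM, and the changes were -0.12, -0.27 and -0.39, the first with a standard error of 0.16 against 1.37 over all libraries.

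Scn4b and Scn3b were the 2 of the 7 genes whose levels did not overlap between the 3 libraries with high striatal markers and the other 5, Scn4b higher by 3.78 on the log2 scale and Scn3b lower by -1.41. Of all tested genes 15.2% were higher and 9.59% were lower without overlap in the same way. The other 5 genes overlapped, with differences between -0.77 for Scn8a and 0.55 for Scn3a. Relative to the mean of the striatal markers, Scn4b lay between 0.20 and 1.28 in all 8 libraries. The part of these markers' source in the levels of the 7 genes was not tested.

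**Figure D3:**
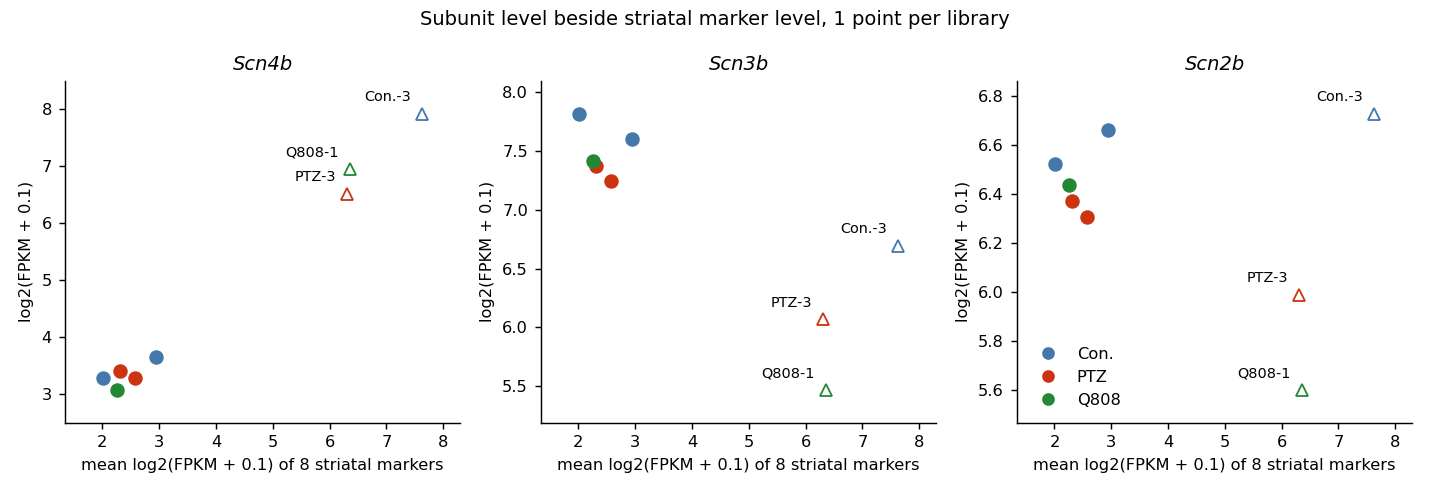
Level of Scn4b, Scn3b and Scn2b as log2(FPKM + 0.1) (y axis) against the mean log2(FPKM + 0.1) of 8 markers of striatal projection neurons (x axis), with 1 point per library coloured by group. Con.-3, PTZ-3 and Q808-1 lie between 6.31 and 7.63 on the x axis, with Scn4b high and Scn3b low, while for Scn2b the 3 libraries overlap with the other 5.

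PTZ against Con. sets rats that were kindled and then given PTZ again against rats that had neither. A gene was called at an unadjusted limma p under 0.05 with a change of more than 1.5-fold, and 0 of the 7 were called, where 2.53% of all 15593 tested genes were (3.95% with the replicate number as a block, which also called 0 of the 7). In this main fit no tested gene had an adjusted limma p under 0.05, while 589 had an unadjusted p under it. In the 5 libraries 148 genes had an adjusted limma p under 0.05, none of the 7 among them, and 3055 an unadjusted p under it. A lower level with an unadjusted p under 0.05 was found for Scn2b alone, 1 of 7, against 1.53% of all genes, and the same gene was the 1 of 7 with PTZ libraries wholly below the Con. libraries, against 5.03% of all genes. All 7 log2 changes were negative, between -0.58 and -0.16 with a median of -0.41, where 57.0% of all genes were lower and their median was -0.04. Without Con.-3 and PTZ-3 it was 6 of 7 with a median of -0.14, where 64.4% of all genes were lower with a median of -0.11. Between PTZ-3 and Con.-3 alone 7 of 7 were lower, with a median of -0.74, where 40.1% of all genes were.

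Q808 against PTZ asks what the drug changed in kindled rats. Of the 7 genes 0 were called, against 1.92% of all genes, and 0 had Q808 libraries wholly below the PTZ libraries, against 5.02%. In limma none of the 7 had an unadjusted p under 0.05, and their adjusted p lay between 0.952 and 0.981. The 95% intervals of the log2 change ran from -0.34 to 0.77 for Scn1a, -1.06 to 0.48 for Scn2a, -0.60 to 0.70 for Scn3a, -1.12 to 1.36 for Scn8a, -0.88 to 0.48 for Scn2b and -2.01 to 1.10 for Scn3b. Each of them holds changes of more than 1.5-fold, so these libraries do not show that the levels were alike. Among the 5 libraries with low striatal markers, Q808-2 lay above the PTZ mean for 6 of the 7 genes by 0.10 to 0.21, and below it for Scn4b by -0.27, with a single Q808 library. The median of the 7 was 0.11, where 30.4% of all genes were lower and their median was 0.16.

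Q808 against Con. compares treated kindled rats with rats that were never kindled, on the same Q808 and Con. libraries as the other 2 comparisons. Again 0 of 7 genes were called, against 3.46% of all genes, and 0 had an unadjusted limma p under 0.05. Scn2b was the 1 of 7 with Q808 libraries wholly below the Con. libraries, against 6.71% of all genes, at a log2 difference of -0.62 and a standard error of 0.27 (limma, adjusted p = 0.901). Without the 3 libraries it was -0.16. The changes of Scn2a and Scn8a were -0.58 and -0.46, and without the 3 libraries they were 0.04 and 0.08. Without Q808-2, Q808-1 is the only treated library and is assumed to vary like the 3 Con. libraries. In that setting 4 of the 7 were called, Scn2a at -1.12, Scn8a at -0.98, Scn2b at -1.04 and Scn3b at -1.90, where 11.5% of all genes were. Without Q808-1 the changes of Scn2a, Scn8a and Scn3b lay between -0.04 and 0.07, and that of Scn2b was -0.20, with Q808-2 still below every Con. library. Q808-1 is a library whose oligodendrocyte marker mean of 9.31 was the highest and whose general neuron marker mean of 6.20 was the lowest of all 8.

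**Figure D4:**
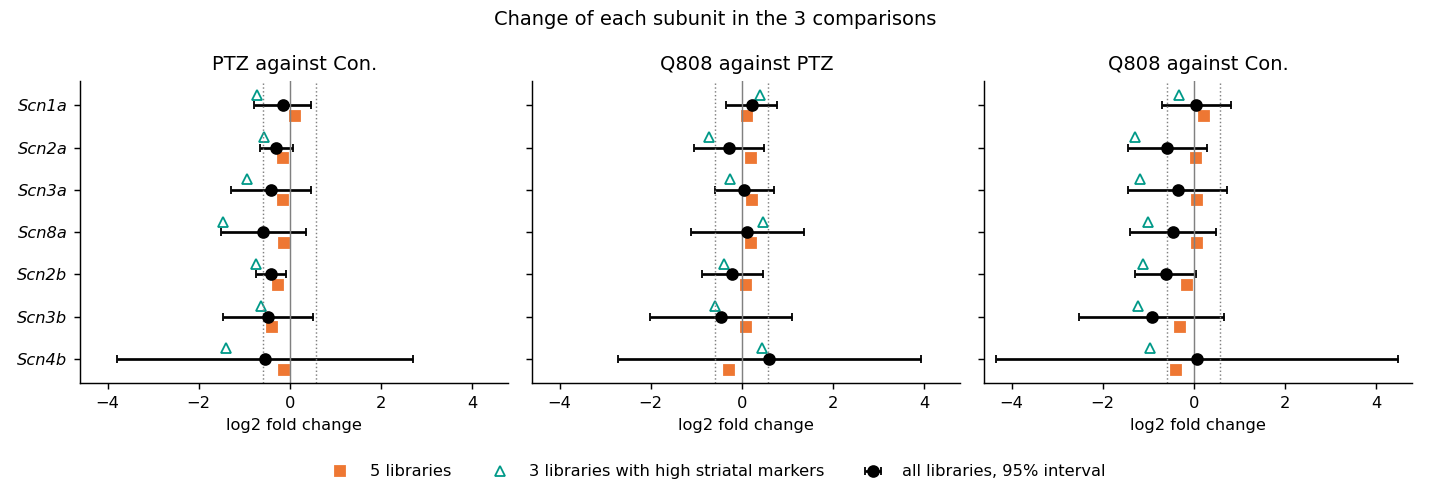
Log2 fold change (x axis) of each subunit (y axis) in the 3 comparisons, as black points with 95% intervals from limma over all libraries, squares for the 5 libraries with low striatal markers and triangles for Con.-3, PTZ-3 and Q808-1, where each group has 1 library. Dotted lines mark 1.5-fold, and the interval of Scn2b in PTZ against Con. is the only one that leaves out 0.

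Of 6 other genes of the sodium channel family, 4 passed the limit on low values and 0 were called in any comparison. The shares of all genes called were 2.53% in PTZ against Con., 1.92% in Q808 against PTZ and 3.46% in Q808 against Con. Scn10a and Scn11a, pore subunits of sensory neurons, stayed below the limit on low values. Nalcn, the sodium leak channel, measured 12.1 to 26.4 FPKM and differed on the log2 scale by -0.17 between PTZ and Con. and by -0.56 between Q808 and Con. (limma, adjusted p = 0.999 and 0.901). Scn7a, at 0.0459 to 0.187 FPKM, differed by -0.19 between PTZ and Con. and 0.59 between Q808 and PTZ. Scn4a, the pore subunit of skeletal muscle, at 0.370 to 0.835 FPKM, differed by 0.44 between Q808 and PTZ and 0.50 between Q808 and Con.

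Of 24 genes whose proteins anchor, bind or process the channels, all had measured mRNA and 0 were called in any comparison. In PTZ against Con., 19 of the 24 were lower, with a median log2 change of -0.09, where 57.0% of all genes were lower with a median of -0.04. Among the 5 libraries 12 of 24 were lower, with a median of -0.00091, where 64.4% of all genes were lower with a median of -0.11. Over all libraries 2 of the 24 had an unadjusted limma p under 0.05, both lower, where 1.53% of all genes were lower with such a p. Trim46, which bundles microtubules in the axon initial segment, measured 23.4, 21.5 and 21.3 FPKM in the Con. libraries, 16.8, 16.5 and 16.5 FPKM in the PTZ libraries, and 11.8 and 21.0 FPKM in the Q808 libraries. Its 3 PTZ libraries were close together and all lower, a log2 change of -0.41 (limma, adjusted p = 0.999).

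Fgf14, an intracellular factor that binds the tail of the alpha subunits, measured 8.24, 9.96 and 12.9 FPKM in the Con. libraries, 6.68, 7.31 and 7.29 FPKM in the PTZ libraries, and 4.93 and 8.01 FPKM in the Q808 libraries. Both kindled groups lay below all Con. libraries, with log2 changes of -0.52 for PTZ (limma, adjusted p = 0.999) and -0.69 for Q808 (limma, adjusted p = 0.901). Ank3, the ankyrin that anchors the channels at the initial segment, and Nedd4, a ubiquitin ligase, were the 2 others of the 24 whose PTZ libraries were wholly below the Con. libraries, named after their values were seen, so that 4 of the 24 were, against 5.03% of all genes. In Q808 against Con. 5 of the 24 were wholly lower, against 6.71% of all genes. Ank3 measured 30.4 to 41.6 FPKM in the Con. and 27.2 to 30.1 FPKM in the PTZ libraries, and Nedd4 75.7 to 82.0 and 57.0 to 72.8 FPKM. In the other direction 1 of the 24 did not overlap, Ptprz1, a receptor phosphatase that binds beta subunits, at 28.4 to 31.5 FPKM in the Con. libraries and 33.1 FPKM or more in the PTZ libraries, against 4.11% of all genes. The largest changes that remained were 0.44 (PTZ against Con.) and 0.55 (Q808 against Con.) for Tnc, an extracellular matrix protein, and -0.40 for Fgf12 and 0.40 for Cntn2 in Q808 against PTZ, none of which passed the test.

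The genes whose pattern over the 8 libraries was most like that of each subunit were named by the root mean square difference of centred log2(FPKM + 0.1), among genes with a mean of at least 1 FPKM. For Scn1a they were Tulp4 (0.0342), Chrm2 (0.0916) and Bace1 (0.110), and for Scn2a Slitrk4 (0.0551), Frmpd4 (0.0898) and Nalcn (0.101). For Scn3a they were Tmem132b (0.108), Alcam (0.112) and Cyld (0.119). Those of Scn8a were Slc4a8 (0.107), Stxbp5l (0.121) and Slc9a7 (0.137), of which Slc4a8 is also the coding gene next to Scn8a on chromosome 7.

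For Scn2b they were Dcc (0.0576), Jakmip2 (0.0936) and Slc2a13 (0.0947), and for Scn3b Iqgap2 (0.108), Wipf3 (0.139) and Ptk2b (0.164). Scn4b had the least close neighbours, Ppp1r1b (0.206), Tbc1d10c (0.318) and Rasgrp2 (0.352). Ppp1r1b, a phosphatase inhibitor of dopamine-responsive neurons that is 1 of the 8 striatal markers, measured 386 to 755 FPKM in the 3 libraries with high Scn4b and 37.4 to 47.7 FPKM in the other 5. Likeness over 8 libraries describes these libraries, which share their dissection, depth and group as well.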

How the data were processed

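RNA sequencing of the hippocampus from 8 rats was used. The authors deposited FPKM per gene for 22601 genes in each library, and the submitters' processing notes name Trimmomatic, HISAT2, Bowtie2, SAMtools, StringTie, Cufflinks, HTSeq and DESeq; the genome build and strand setting are not given in the sources used here. The FPKM come without the counts from which counting error could be modelled, so precision comes from the spread between libraries. Genes were matched by GeneID, and 20633 took their symbol from the RefSeq table of GRCr8. The 15593 genes that averaged 0.1 FPKM or more were tested on log2(FPKM + 0.1), which understates changes of low genes, with limma 3.58.1 (R 4.3.3, empirical Bayes with trend), each pair of groups by itself. The call was an unadjusted p under 0.05 with over 1.5-fold change, after the study's methods, and Benjamini-Hochberg adjustment ran over all tested genes. Mean shares, and the members' levels, were set against all regroupings of the libraries in exact permutation tests (two-sided). The limma step was tested on simulated data. Tables and figures were made with Python 3.11.15, pandas 2.3.3, numpy 2.4.6 and matplotlib 3.10.9.

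The members, gene lists, marker lists and the division into 3 and 5 libraries were chosen with earlier results of these data known. Named genes were the 7 members, listed genes with the 2 largest changes per comparison, and the 3 most alike per member. Some planned items, and the shares that need them, are not reported here. Replicate numbers in the labels mark different rats. Over all tested genes, the deviations from the group means correlated at 0.212, 0.299 and 0.422 for same-numbered Con. and PTZ libraries. Con.-2 and PTZ-1 reached 0.322, and the value of 0.422 is that of Con.-3 and PTZ-3, which both have high striatal markers. The numbers therefore do not establish pairs. The main fits were unpaired, with the replicate block as an alternative. With Q808 there are 2 numbers, at -0.379 and 0.527 (Con.) and -0.295 and 0.322 (PTZ), which do not pair. The fits with the striatal covariate and those in the 5 libraries held all 3 groups at once. Alternatives were pseudocounts of 1 and 0.01, no filter, a limit of 1 on the mean FPKM, a joint fit of all 3 groups, limma with no trend, median ratio scaling, quantile normalization, the replicate block, the striatal marker mean as a covariate, the 5 libraries alone, each library left out, and, added after seeing the data, the 3 libraries with no test.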

Additional observations from a re-analysis of the deposited data

How the results depend on the processing

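With 2 or 3 libraries per group and no counts, only large or very even changes could pass, and a p above the threshold does not show equal levels. Genes called over all 15593 numbered 395, 300 and 540 for PTZ against Con., for Q808 against PTZ and for Q808 against Con. They were 219 in the first and 340 in the third with a pseudocount of 1, 193 in the second with a limit of 1 on the mean FPKM, 656, 730 and 936 with the striatal covariate, and 1532 and 1625 in the first and second in the 5 libraries. Leaving out each library gave 249 to 1135, 132 to 1569 and 279 to 1799, the extremes without PTZ-2 and PTZ-3, PTZ-1 and PTZ-3, and Con.-2 and Q808-2.

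With the replicate number as a block 616, 1894 and 1076 genes were called, the members' count stayed at 0, 0 and 0, Scn8a went to -0.32 in Q808 against PTZ and Scn3a to 0.047 in Q808 against Con. The numbers do not pair the Q808 libraries.

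With the striatal covariate the count of 0 members became 1 (Scn3b) in PTZ against Con., where 656 of all 15593 genes were called. In Q808 against Con. it became 2 (Scn2b, Scn3b), where 936 genes were called. With all 3 groups in a fit it became 1 (Scn2b) in Q808 against Con., where 471 genes were called. Leaving out each library other than Q808-2 did not change the count. Without Q808-2, Q808-1 is the single treated library, and only effect sizes are given here. In Q808 against PTZ Scn2a was at -0.82, Scn8a at -0.41, Scn2b at -0.62 and Scn3b at -1.43. Scn1a, Scn3a and Scn4b were higher there, at 0.25, 0.027 and 2.54. In Q808 against Con. Scn2a was at -1.12, Scn3a at -0.38, Scn8a at -0.98, Scn2b at -1.04 and Scn3b at -1.90. Scn1a and Scn4b were higher, at 0.094 and 2.00.

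Signs turned as follows. In the 5 libraries the log2 change was 0.12 for Scn1a in PTZ against Con., 0.19 for Scn2a, 0.10 for Scn2b, 0.10 for Scn3b and -0.27 for Scn4b in Q808 against PTZ, and 0.038 for Scn2a, 0.072 for Scn3a, 0.076 for Scn8a and -0.39 for Scn4b in Q808 against Con. In Q808 against PTZ Scn3a was -0.12 with quantile normalization, -0.040 with median ratio scaling, -0.034 with the covariate and -0.25 in the 3 libraries. In Q808 against Con. Scn4b was -0.031 with the covariate, and in the 3 libraries Scn1a was -0.32 and Scn4b -0.96. Leaving out each library gave, in PTZ against Con., -0.41 to 0.047 for Scn1a and -1.60 to 0.94 for Scn4b. In Q808 against PTZ it gave -0.82 to 0.25 for Scn2a, -0.054 to 0.19 for Scn3a, -0.41 to 0.65 for Scn8a, -0.62 to 0.21 for Scn2b, -1.43 to 0.52 for Scn3b and -1.32 to 2.54 for Scn4b. In Q808 against Con. it gave -0.20 to 0.26 for Scn1a, -0.67 to 0.047 for Scn3a, -0.98 to 0.069 for Scn8a, -1.90 to 0.043 for Scn3b and -1.87 to 2.00 for Scn4b. The cause was not tested. Over the 3 comparisons 4, 16 and 15 of the members' values turned sign. The differences of mean shares moved by more than 1 SD in 1 of their values and by less in 75.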
